A study of Mus musculus with 12 samples.

Results

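The miR-297, miR-466, miR-467 and miR-669 families are rodent-specific microRNAs that expanded as repeats within a large intron of Sfmbt2, an imprinted gene that encodes a Polycomb-related protein. The members were all mouse miRNA probes of a NanoString nCounter panel with one of these 4 miR numbers, whatever the letter or arm, which gave 33 of the 566 mouse miRNA probes. On such a panel each target RNA is tagged with a colour-coded probe and the tags are counted one by one, with no PCR step. RNA came from mHypoE-46, an embryonic hypothalamic neuronal cell line of male mouse labelled as expressing 2 feeding-related peptides, neuropeptide Y and agouti-related peptide. The cultures were given 100 nM insulin or vehicle (PBS), and RNA was taken after 24 h or after 4 h, which the labels place after and before insulin resistance develops. The 4 groups were insulin at 24 h, vehicle at 24 h, insulin at 4 h and vehicle at 4 h, with 3 libraries each from independent repeats of the experiment in this 1 line. All cultures were grown in medium with fetal bovine serum, and the vehicle cultures received no added insulin. The counts come from whole cultures, so fewer expressing cells and less RNA per cell cannot be told apart.

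A microRNA silences messenger RNAs that pair with its seed, the bases 2 to 8 from its 5′ end, and members that share a seed can share targets. The Sfmbt2 cluster is transcribed with its host from the paternal allele, mainly in the early embryo and in placenta, where its deletion in mouse impairs placental growth. Single members have reported roles in other cells. Among them, miR-669a represses the myogenic factor MyoD in cardiac progenitors and miR-466l stabilises interleukin-10 mRNA in macrophages. In further reports miR-466h promotes apoptosis, and miR-467 represses thrombospondin-1 under high glucose. The families are rich in alternating UG or AC bases, and several of their members have many near-identical copies.

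The sequences below are those of RefSeq on GRCm38.p6 and show these repeats in members whose genes lie outside Sfmbt2. They are the 4 probes of a single miRNA that matched an entry by name, of which miR-466k and miR-467f passed the count filter described below, whereas miR-467g and miR-466j did not. Capitals mark the seed.
miR-466k: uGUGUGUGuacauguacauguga
miR-467f: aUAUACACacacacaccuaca
miR-467g: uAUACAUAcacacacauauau
miR-466j: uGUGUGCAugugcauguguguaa
In the genome, miR-466k lay at chr3:85467396-85467418 (plus strand), miR-467f at chr11:69635419-69635439 (minus strand), miR-467g at chr5:34732872-34732892 (minus strand) and miR-466j at chr10:60960802-60960824 (plus strand). The 4 seeds differed from one another, and no other of the 1679 mature sequences searched carried any of them. Only 5 mature names of the families matched an entry, however. Whether members without a matched entry share these seeds was not tested. Both miR-466 members shown carry UG repeats and both miR-467 members shown carry AC repeats. The longest stretch shared by miR-466k and miR-466j was 8 bases, and by miR-467f and miR-467g 11 bases. A stretch of 10 bases of miR-467f was the exact complement of part of miR-466k, as was one of 10 bases in miR-467g. Searched on the mature strand as given, the letters UGUGUG occurred in 1.67% of 1679 mature sequences and ACACAC in 0.655%. Among the 5 mature names of the families that matched, 3 held UGUGUG and the others held ACACAC. Those with UGUGUG were miR-466k, miR-466j and miR-467h, which is read with miR-669d and miR-669l by a single probe. The genes of all 5 lie outside Sfmbt2, so these sequences do not describe the members within the intron. The hairpin of miR-466k, in which capitals mark the mature strand, continued the repeat on its 5′ side.
Mir466k hairpin: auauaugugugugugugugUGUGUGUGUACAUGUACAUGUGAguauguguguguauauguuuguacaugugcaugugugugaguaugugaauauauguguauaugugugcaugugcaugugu

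Not every member lies in the host gene. By the gene symbols of RefSeq (GRCm38.p6), 71 miRNA genes of these families lie within Sfmbt2 on chromosome 2 and 10 lie elsewhere. Of the 33 probes, 25 read miRNAs with genes only inside Sfmbt2. A further 3 read miRNAs with genes both inside and outside it (miR-466f-5p, miR-297a+miR-466f+miR-669b and miR-467h+miR-669d+miR-669l). The remaining 5 read miRNAs with genes only elsewhere: miR-466k on chromosome 3, miR-467g on 5, miR-466j on 10, miR-467f on 11 and miR-466i on 13. Of all members, 4 probes join several names, and miR-466a, named in a pair of those, had no gene under its own name. Members with several copies were miR-669a, with 12 genes, and miR-467a, with 10.

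Total counts of mouse miRNAs ran from 142158 to 379809 per library. Each library has 8 negative control probes without a target, and their mean plus 2 SD was used as its threshold. Thresholds were 38.9, 124 and 110 counts for insulin at 24 h (replicates 1, 2 and 3), 53.3, 118 and 96.9 for vehicle at 24 h, 89.0, 65.9 and 50.8 for insulin at 4 h, and 76.9, 67.0 and 67.9 for vehicle at 4 h. Insulin 24 h replicate 1 stood apart, with the lowest negative control mean (25.0 counts) and a total of 142491 counts, against totals of 379809 and 221668 in its group. Lanes 7 to 12 held the 24 h samples and lanes 1 to 6 the 4 h samples, so the effect of time cannot be told apart from that of the lane block. Of 7 neuronal markers 4 passed the filter given below, with miR-9 detected in all 12 libraries, whereas miR-124, miR-138 and miR-212 were detected in 0. Among early embryo markers 0 of 4 miR-302 probes and 1 of 11 probes of the miR-290 to miR-295 cluster passed it. In other marker lists it was passed by 3 of 8 glial and mesenchymal probes, and by 4 of 9 probes of blood, endothelium and muscle.

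Most of the families were at background. Only 5 of 33 members (15.2%) were above the threshold in at least 3 of 12 libraries, the filter for testing, against 34.5% of all mouse miRNA probes. They were miR-297c and miR-466g, above it in 12 of 12 libraries, miR-466k in 8, and miR-466d-3p and miR-467f in 7 each. The 33 viral miRNA probes on the same panel, whose targets come from mouse herpesviruses, passed that filter in the same number, 5 (15.2%). Among them mghv-miR-M1-5 was also above the threshold in 12 of 12 libraries, and mcmv-miR-m01-2 in 5. Their mean counts were 143 and 77. Those of the members were 235 for miR-297c, 149 for miR-466g, 82.3 for miR-466d-3p, 81.7 for miR-466k and 79.7 for miR-467f. Passing the filter thus does not by itself show that a target was present. Over all libraries 52 of 396 member values lay above their threshold (13.1%), against 27.9% of all mouse probe values and 8.33% of viral probe values.

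By library, 6, 2 and 2 members were above the threshold with insulin at 24 h (replicates 1, 2 and 3), against 7, 2 and 5 with vehicle at 24 h. At 4 h there were 6, 6 and 6 with insulin, against 2, 4 and 4 with vehicle. The 24 h groups overlapped in this count and the 4 h groups did not. Over all mouse probes the share above the threshold was 26.7%, 32.5% and 34.5% with insulin at 4 h, against 22.8%, 30.7% and 28.3% with vehicle, which overlapped. The member share was below the share of all mouse probes in 12 of 12 libraries, above that of viral probes in 11 and equal to it in 1.

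**Figure D1:**
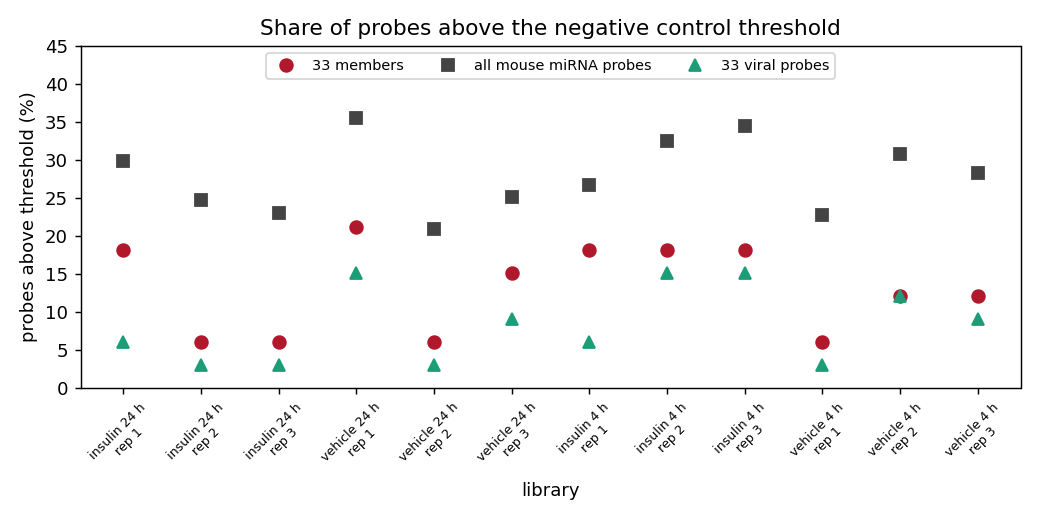
Share of probes (%, vertical axis) above the negative control threshold in each of the 12 libraries (horizontal axis), for the 33 members (circles), all 566 mouse miRNA probes (squares) and the 33 viral probes (triangles). The members lie below all mouse probes in 12 of 12 libraries, between 6.06% and 21.2%.

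The families differed in how many members passed. It was 1 of 3 probes for miR-297, 3 of 12 for miR-466, 1 of 7 for miR-467, 0 of 9 for miR-669 and 0 of the 2 probes that join families. By location, 3 of 25 probes of miRNAs inside Sfmbt2 alone passed, 2 of 5 of those elsewhere alone, and 0 of 3 of those with genes in both. Each of the 5 members that passed had 1 gene, but so did most members that did not pass. Of those with the most genes, miR-669a, with 12, was above the threshold in 1 library and miR-467a, with 10, in 0. Whether the number of genes bears on detection was not tested. Other rodent clusters were also low, with 3 of 23 probes of the X-linked cluster near Fmr1 passing.

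The typical member gave about as many counts as a negative control. The median count over the 33 members, divided by the negative control mean of the same library, was 0.979 ± 0.0855 with insulin at 24 h and 0.981 ± 0.0844 with vehicle at 24 h (SD, n = 3 each). It was 1.12 ± 0.0727 with insulin at 4 h and 1.00 ± 0.0960 with vehicle at 4 h. The ranges of all 4 groups overlapped. Together the members took 0.718% ± 0.158 of the mouse miRNA counts with insulin at 24 h and 0.755% ± 0.0614 with vehicle at 24 h, and 0.893% ± 0.288 with insulin at 4 h and 0.928% ± 0.197 with vehicle at 4 h.

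**Figure D2:**
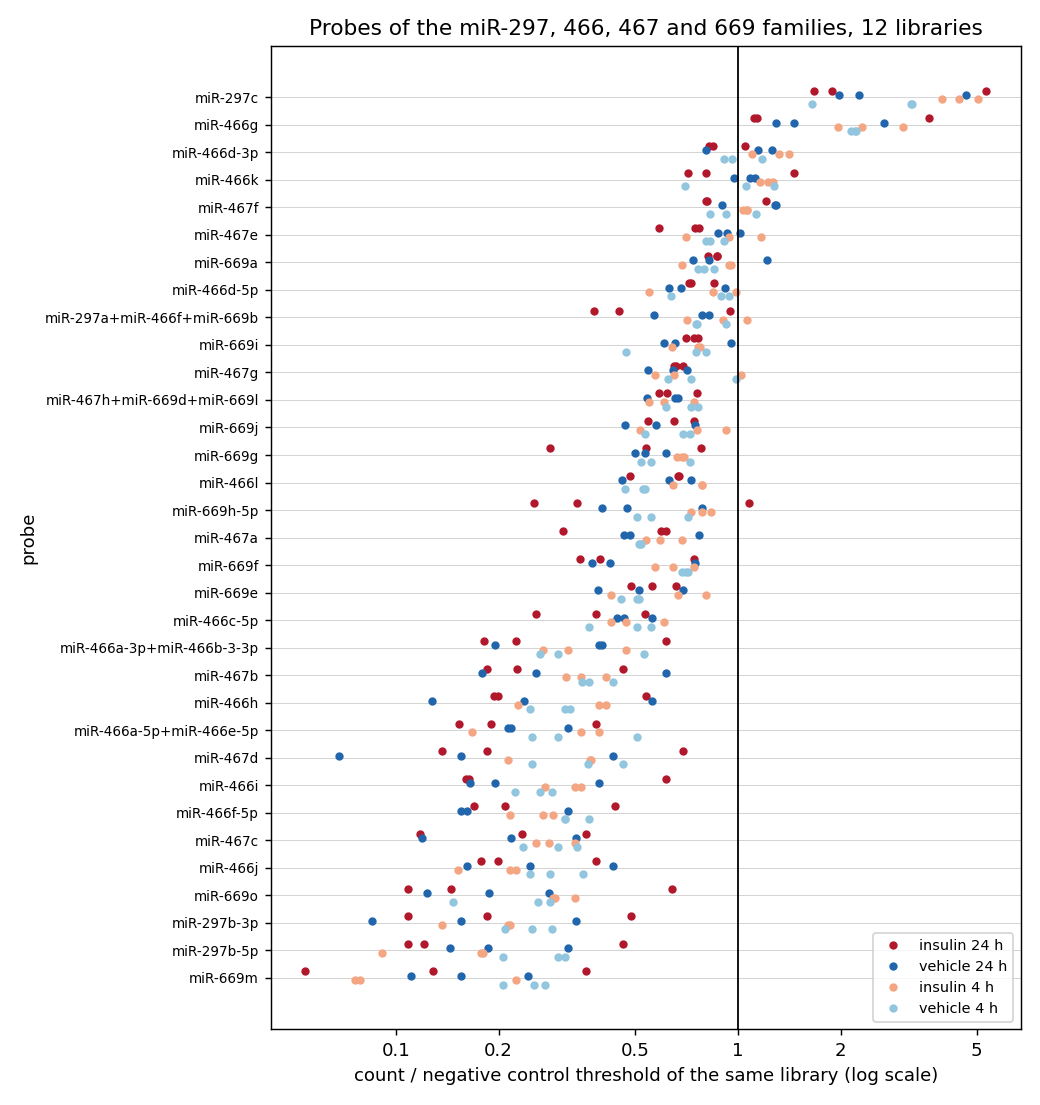
Count divided by the negative control threshold of the same library (horizontal log axis) for each of the 33 probes (vertical axis, ordered by mean count), 1 point per library, coloured by group; the vertical line at 1 is the threshold. Only miR-297c and miR-466g lie right of the line in all 12 libraries, and 23 probes lie left of it in all 12.

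Just inside the filter were miR-466d-3p and miR-467f, with 7 libraries each, and just outside it was miR-467e, above its threshold in 2 (vehicle 24 h replicate 1 and insulin 4 h replicate 2). Its counts ran from 23 to 103 with a median of 63.5. A further 4 members were above the threshold in a single library. These were miR-669a (34 to 102 counts, median 62; vehicle 24 h replicate 1), the joint probe of miR-297a, miR-466f and miR-669b (37 to 95, median 53.5; insulin 4 h replicate 1), miR-467g (27 to 82, median 51.5; insulin 4 h replicate 3) and miR-669h-5p (28 to 65, median 42; insulin 24 h replicate 1).

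Of the 23 members above the threshold in 0 libraries, miR-466d-5p (28 to 94 counts, median 62) and miR-669i (29 to 95, median 55.5) had the highest mean counts. The lowest were miR-297b-3p (9 to 23, median 16), miR-297b-5p (6 to 24, median 16.5) and miR-669m (4 to 21, median 14). At this depth these miRNAs were not detectable, which does not show that they were absent. Each probe binds with its own efficiency, so the order of counts over different probes is an order of signal over background and not of miRNA abundance.

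The count of miR-297c was 208, 234 and 184 with insulin at 24 h (replicates 1, 2 and 3), against 248, 232 and 220 with vehicle at 24 h. At 4 h it was 450, 261 and 226 with insulin, against 127, 216 and 219 with vehicle. Insulin 4 h replicate 1 held the highest value and vehicle 4 h replicate 1 the lowest, and the other 10 lay between 184 and 261. These counts are not scaled for depth, and mean library totals at 4 h were 192915 with insulin and 170867 with vehicle. Separation of the groups is therefore read below in CPM, beside its share over all tested miRNAs.

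The count of miR-466g was nearly constant, at 141, 141 and 123 with insulin at 24 h, against 143, 152 and 142 with vehicle at 24 h, and 175, 152 and 155 with insulin at 4 h, against 165, 148 and 151 with vehicle at 4 h. Its coefficient of variation over the 12 libraries was 8.77%, the lowest of the 195 tested miRNAs. Its highest count was 1.42 times its lowest, whereas the library totals spanned 2.67 times. Set against a constant expected count, its chi-square was 1.15 per degree of freedom (11 degrees of freedom), and set against a constant share of the library total it was 16.4. In the same order the values were 24.3 and 47.8 for miR-297c, 6.20 and 4.40 for miR-466d-3p, 5.84 and 5.90 for miR-466k, and 6.75 and 4.77 for miR-467f. Counting error alone gives about 1 and separate cultures add to it, so these values only describe the spread. The low spread of miR-466g was noticed among all 195 and has no test.

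The count of miR-466d-3p was 41, 105 and 91 with insulin at 24 h, against 61, 95 and 122 with vehicle at 24 h, and 98, 93 and 67 with insulin at 4 h, against 74, 61 and 80 with vehicle at 4 h. For miR-466k the counts were 57, 89 and 89 with insulin at 24 h, against 60, 115 and 105 with vehicle at 24 h, and 113, 81 and 59 with insulin at 4 h, against 54, 71 and 87 with vehicle at 4 h. For miR-467f they were 47, 101 and 89 with insulin at 24 h, against 69, 106 and 125 with vehicle at 24 h, and 92, 70 and 54 with insulin at 4 h, against 64, 76 and 63 with vehicle at 4 h. In these 3 miRNAs replicate 1 was the lowest library in both 24 h groups, and the groups overlapped in each comparison. Over all libraries the counts of each of them stayed within 1.44 to 2.53 times the negative control mean.

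Counts of these 3 miRNAs moved with the negative controls across the 12 libraries. Pearson's r with the negative control mean was 0.87 for miR-467f (permutation p = 0.00054, adjusted 0.00324; Spearman's rho 0.88, adjusted p = 0.00192), 0.80 for miR-466d-3p (permutation p = 0.00174, adjusted 0.00348; rho 0.76, adjusted p = 0.0156) and 0.72 for miR-466k (permutation p = 0.0101, adjusted 0.0152; rho 0.74, adjusted p = 0.0156). Tests were two-sided and adjusted over 6 relations. For miR-297c r was 0.10 (permutation p = 0.725, rho 0.06) and for miR-466g it was -0.26 (permutation p = 0.416, rho -0.23), neither past the threshold. Without insulin 24 h replicates 2 and 3, the libraries farthest from the median negative control mean, r was 0.95 for miR-467f, 0.84 for miR-466d-3p, 0.87 for miR-466k, 0.27 for miR-297c and 0.21 for miR-466g.

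Within the 4 h libraries r was 0.96 for miR-467f (exact permutation p = 0.00833, n = 6), 0.60 for miR-466d-3p (exact permutation p = 0.231) and 0.76 for miR-466k (exact permutation p = 0.122). Within the 24 h libraries it was 0.82, 0.87 and 0.79 in the same order (exact permutation p = 0.075, 0.0583 and 0.10, n = 6). All 6 within-block values were above 0, and 1 of them had p under 0.05. The negative control mean itself moved with the library total (r = 0.79, permutation p = 0.00164, adjusted 0.00348; rho 0.64, adjusted p = 0.0447), but within the 4 h libraries that r was -0.38 (exact permutation p = 0.492, n = 6). Within the 24 h libraries it was 0.88 (exact permutation p = 0.0111, n = 6). The relation was not particular to the families: r exceeded 0.5 for 16 of 33 members (48.5%), 64.5% of all mouse miRNA probes and 66.7% of viral probes. What part background counts had in the values of these miRNAs was not tested.

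**Figure D3:**
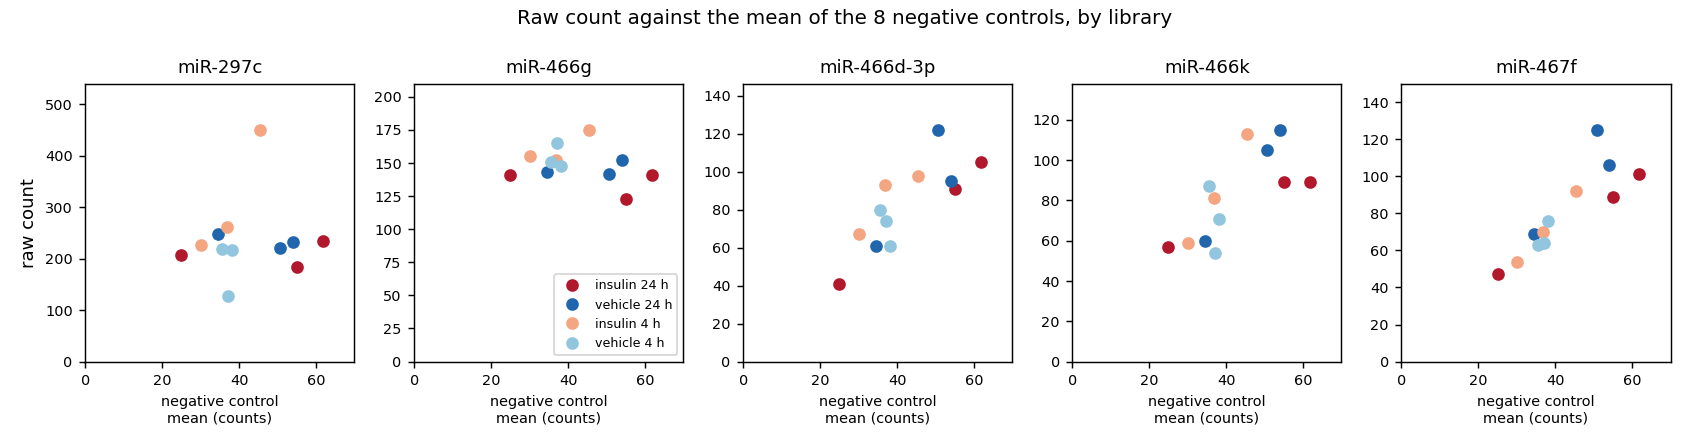
Raw count (vertical axes, from 0) against the mean count of the 8 negative controls of the same library (horizontal axes) for the 5 members that passed the filter, 1 point per library, coloured by group. The points of miR-466d-3p, miR-466k and miR-467f climb with the negative controls (r of 0.72 to 0.87), whereas miR-466g stays between 123 and 175 counts.

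To compare conditions, counts were tested in edgeR over all 195 miRNAs that passed the filter, with TMM scaling to set libraries to a common depth. Levels are given as CPM, each count as a share of the summed counts of those 195 after that scaling. A Benjamini-Hochberg adjusted p under 0.05 counted as a call. The 24 h comparison asks how insulin differs from vehicle after prolonged exposure. In edgeR 0 of the 5 members were called, as were 0% of all 195. At 24 h miR-297c averaged 1172 ± 576 CPM with insulin and 1155 ± 307 CPM with vehicle (SD, n = 3 each), a log2 fold change of 0.0013 (SE 0.32). For miR-466g the means were 771 ± 412 CPM with insulin and 714 ± 135 CPM with vehicle, a log2 fold change of 0.07 (SE 0.28). Insulin 24 h replicate 1 set much of that spread, with 1245 CPM of miR-466g against 500.1 and 567 CPM in the other two, although its count of 141 was like theirs. Without it the log2 fold change was -0.41 for miR-466g and -0.45 for miR-297c, neither called.

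The values of the other 3 members at 24 h were below 0, at -0.28 for miR-467f (SE 0.20, 95% interval -0.70 to 0.15), -0.19 for miR-466d-3p (SE 0.19) and -0.14 for miR-466k (SE 0.23). In CPM, miR-467f was at 415, 358 and 411 with insulin and at 420, 445 and 558 with vehicle. Every insulin value was below every vehicle value, which held for 2.05% of all tested miRNAs in that direction, although the closest pair, 415 CPM with insulin and 420 CPM with vehicle, was nearly equal. Without vehicle 24 h replicate 3 the log2 fold change of miR-467f was -0.14. The smallest adjusted p of a member was 0.962, with 0 members at an unadjusted p under 0.05 in edgeR, DESeq2 or limma on the authors' signals, beside 4, 6 and 1 of all 195 miRNAs. When the negative control mean was subtracted before the fit, miR-467f was at -0.64, miR-466d-3p at -0.48 and miR-466k at -0.35, still not called. Scaling to housekeeping mRNAs moved the median of all 195 miRNAs to -0.33, with miR-467f at -0.68, miR-466d-3p at -0.61 (adjusted p = 0.272 for both in edgeR) and miR-466k at -0.47. Under that scaling 2 of the 5 members and 30 of 195 miRNAs had an unadjusted p under 0.05, and 0 were called. By replicate number, miR-466d-3p was at 362, 372 and 420 CPM with insulin against 371, 399 and 544 CPM with vehicle. With that number as a block the log2 fold changes were -0.18 (SE 0.21) for miR-466d-3p and -0.28 (SE 0.22) for miR-467f. Neither was called, and the median over all 195 miRNAs was 0.06.

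At 4 h, the comparison of insulin with vehicle before resistance, 0 of the 5 members were called, as were 0% of all 195. The member of smallest p was miR-297c. It was at 2246, 1283 and 1349 CPM with insulin and at 804, 1248 and 1122 CPM with vehicle, means of 1626 ± 538 CPM and 1058 ± 229 CPM. Every insulin value was above every vehicle value, which held for 2.56% of all tested miRNAs in that direction. The closest pair, 1283 CPM with insulin and 1248 CPM with vehicle, was nearly equal. The log2 fold change was 0.62 (SE 0.31, 95% interval -0.05 to 1.29, unadjusted p = 0.0681, adjusted p = 0.971 in edgeR). Without insulin 4 h replicate 1 it was 0.31, and over the alternatives tried its adjusted p ran from 0.559 to above 0.999.

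The other members at 4 h lay near 0, at 0.13 for both miR-466d-3p (SE 0.19) and miR-466k (SE 0.23), -0.04 for miR-467f (SE 0.20) and -0.07 for miR-466g (SE 0.27). Of the 5 members 0 had an unadjusted p under 0.05 in edgeR and limma and 1 had in DESeq2, beside 3, 2 and 5 of all 195 miRNAs in these tools. With the negative control mean subtracted, miR-466d-3p was at 0.29 (SE 0.38) and miR-466k at 0.34 (SE 0.48), not called. The intervals were wide for single members: that of miR-466g ran from -0.65 to 0.51 and that of miR-466k from -0.35 to 0.62.

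**Figure D4:**
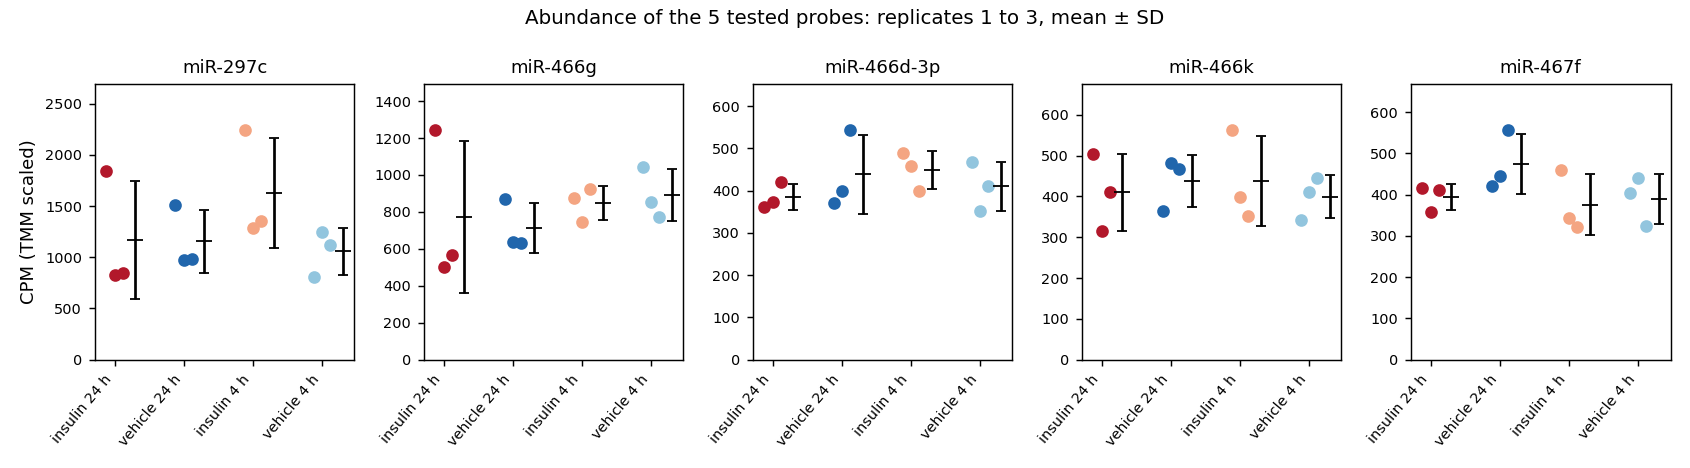
CPM after TMM scaling (vertical axes, from 0) of the 5 members that passed the filter, by group (horizontal axes, replicates 1 to 3 from left to right), with the mean and SD beside them. At 4 h miR-297c lies at 1283 to 2246 CPM with insulin and 804 to 1248 CPM with vehicle, and at 24 h the spread of miR-466g with insulin (500.1 to 1245 CPM) covers that with vehicle.

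How far the insulin response at 24 h departs from that at 4 h asks whether the duration of exposure matters. The difference was below 0 for 4 of 5 members, at -0.62 for miR-297c (SE 0.45), -0.32 for miR-466d-3p (SE 0.27), -0.27 for miR-466k (SE 0.32) and -0.23 for miR-467f (SE 0.29), and 0.14 for miR-466g (SE 0.39). The median over the 5 was -0.27, against 0.05 over all 195 miRNAs. With the negative control mean subtracted it was -0.77 for miR-466d-3p, -0.69 for miR-466k and -0.60 for miR-467f, and with scaling to housekeeping mRNAs, where the median of all 195 was -0.34, it was -0.73, -0.58 and -0.61 in the same order. Single libraries moved it: miR-297c was at -1.07 without insulin 24 h replicate 1 and at -0.31 without insulin 4 h replicate 1. Without insulin 4 h replicate 1 miR-466k was at -0.05 and miR-467f at -0.06, and without vehicle 24 h replicate 3 miR-466d-3p was at -0.13. No member was called (adjusted p = 0.991 for each in edgeR), as was 0% of all 195, with 0 of 195 at an unadjusted p under 0.05 in edgeR, DESeq2 and limma. Members that passed the filter could do so through the group in which they were high, so these medians are descriptions.

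Over time, 24 h was compared with 4 h within each treatment, which also compares the lane blocks. With insulin, 0 of the 5 members were called, against 3.59% of all 195. The log2 changes were -0.50 for miR-297c (SE 0.31), -0.22 for miR-466d-3p (SE 0.19), -0.19 for miR-466g (SE 0.27), -0.13 for miR-466k (SE 0.23) and 0.06 for miR-467f (SE 0.20). In CPM the groups overlapped for each of them. Raw counts of miR-466g, not scaled for depth, ran from 123 to 141 at 24 h and from 152 to 175 at 4 h. How many of all 195 miRNAs were separated in raw counts was not counted, so no weight is put on these ranges. With scaling to housekeeping mRNAs, where the median of all 195 was -0.50, the changes were -0.91 for miR-297c, -0.79 for miR-466d-3p (adjusted p = 0.0775 in edgeR), -0.59 for miR-466g, -0.64 for miR-466k and -0.49 for miR-467f. With the negative control mean subtracted miR-466d-3p was at -0.64 and miR-466k at -0.44. No member was called in either. Without insulin 24 h replicate 1, both miR-297c and miR-466g were called lower at 24 h, at -0.96 (adjusted p = 0.0425 in edgeR) and -0.67 (adjusted p = 0.0401), and 22 of 195 miRNAs were called. In raw counts miR-466g averaged 135 ± 10.4 with insulin at 24 h and 161 ± 12.5 with insulin at 4 h, while the mean library total was 247989 at 24 h and 192915 at 4 h, and how far the depth sets its CPM was not tested.

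With vehicle, 0 of the 5 members were called, as were 0% of all 195. The log2 changes were 0.29 for miR-467f (SE 0.20), 0.14 for miR-466k (SE 0.23), 0.12 for miR-297c (SE 0.32), 0.10 for miR-466d-3p (SE 0.19) and -0.32 for miR-466g (SE 0.27). In CPM the groups overlapped for each. In raw counts miR-466g averaged 146 ± 5.51 with vehicle at 24 h and 155 ± 9.07 with vehicle at 4 h. The sign of the small values depended on scaling: miR-297c, miR-466d-3p and miR-466k were below 0 with scaling to housekeeping mRNAs. With the negative control mean subtracted miR-467f was at 0.51 and miR-466k at 0.25, not called.

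**Figure D5:**
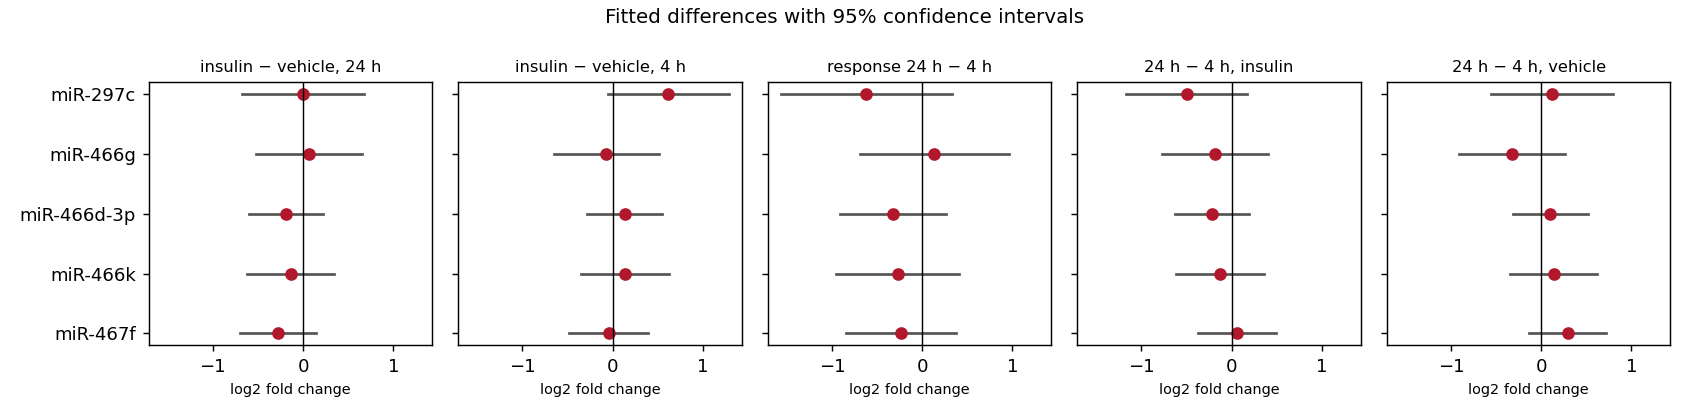
Fitted log2 fold change (horizontal axes) with its 95% confidence interval for the 5 members (vertical axis) in the 5 comparisons. All 25 intervals include 0; the nearest to excluding it is miR-297c for insulin against vehicle at 4 h (-0.05 to 1.29).

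The 28 members below the filter were fitted with the other mouse miRNAs in a model of all 566 probes, so that each member had a value. For insulin against vehicle, 16 of 33 members lay above 0 at 24 h (median -0.01) and 16 of 33 at 4 h (median -0.03). Over all 566 probes it was 54.8% at 24 h (median 0.02) and 48.4% at 4 h (median -0.01). For 24 h against 4 h, 15 of 33 members lay above 0 with insulin (median -0.04) and 11 of 33 with vehicle (median -0.08), beside 51.6% and 48.2% of all probes. Called members numbered 0 of 33 in each of these comparisons, while over all 566 probes 1 was called for 24 h against 4 h with insulin and 0 in each of the others. At an unadjusted p under 0.05 stood 2 of 33 members and 11 of 566 probes for insulin against vehicle at 4 h, and 1 of 33 members and 38 of 566 probes for 24 h against 4 h with insulin. Those values were miR-297b-5p at -0.96 (SE 0.40) and miR-297c at 0.66 (SE 0.28) for insulin against vehicle at 4 h, and the joint probe of miR-297a, miR-466f and miR-669b at -0.56 (SE 0.26) for 24 h against 4 h with insulin. The counts of miR-297b-5p were 16, 6 and 9 with insulin at 4 h, against 24, 20 and 14 with vehicle at 4 h, all below the negative control mean of their library.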

How the data were processed

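NanoString nCounter counts of 620 probes in 12 libraries were deposited as raw counts, read as an expected count table because instrument values in the same columns are not whole. All 620 probes held whole numbers, so rounding changed nothing, and the planned count test was kept. The authors also deposited a signal table in which mouse miRNA signals equal the count times 1 factor per lane, matched by the inverse geometric mean of the 100 highest mouse probes. The 600 control and viral values equal the counts. The sources used here do not name their software.

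The 195 mouse miRNAs that exceeded the threshold (2 SD over the mean of the negative controls) in 3 or more libraries were fitted in edgeR 4.0.16 (R 4.3.3) with TMM scaling, 4 groups in 1 quasi-likelihood model with 8 residual degrees of freedom, two-sided, adjusted by Benjamini-Hochberg over all 195. Named were all members that passed the filter, the 5 highest and 3 lowest of the others, and those above the threshold in 1 or 2 libraries. Alternatives were other scalings, filters, DESeq2 1.42.0, limma 3.58.1 on the authors' signals, background subtraction, a replicate block, and each library left out. Correlations used 100000 permutations in scipy 1.17.1. The members and lists were chosen with earlier results of these data known. p-values measure the spread between repeats of 1 line, and intervals cover that spread.

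The labels number the repeats 1 to 3 in all 4 groups. For same-numbered insulin and vehicle libraries, deviations from the group means correlated at 0.59, 0.50 and 0.31 at 24 h. At 4 h the values were 0.49, -0.30 and 0.74 (replicates 1, 2 and 3). The insulin library was closest to the vehicle library of its own number for replicates 1 and 2 at 24 h and replicates 1 and 3 at 4 h. The data thus bear out the pairing in part at both times. Across times same-numbered libraries correlated from -0.43 to 0.21.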

Additional observations from a re-analysis of the deposited data

How the results depend on the processing

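Not every alternative covered all 5 members. A mean count of at least 100 kept 2, miR-297c and miR-466g. For 24 h against 4 h in vehicle, DESeq2 gave no adjusted p for miR-466d-3p, miR-466k and miR-467f. Among the members tested, the number called was 0 in all 5 comparisons under each scaling, filter, tool and background alternative and with the replicate block. The exception was leaving out insulin 24 h replicate 1, which gave 2 calls for 24 h against 4 h in insulin (0 to 2 over the libraries left out). These were miR-297c at -0.96 and miR-466g at -0.67, and 22 of all 195 miRNAs were called in the same fit. Members passing the detection filter numbered 10 with a threshold of the mean plus 1 SD (273 of 566 mouse probes). They numbered 8 with the highest negative control (227 of 566) and 5 with the mean plus 3 SD (146 of 566). Of member values 26.8% lay above the mean plus 1 SD and 8.33% above the mean plus 3 SD, against 39.9% and 22.2% of all mouse probe values.

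Signs of values near 0 changed. For insulin against vehicle at 24 h, miR-297c was at -0.045 with DESeq2 size factors, -0.085 scaled to the 100 highest probes, -0.32 to housekeeping mRNAs, -0.16 to positive controls, -0.067 with no filter, -0.12 with a mean count of at least 100, -0.037 in DESeq2, -0.13 in limma, -0.0073 with background subtracted and -0.032 with the replicate block. There miR-466g was at -0.0066 scaled to the 100 highest, -0.23 to housekeeping, -0.086 to positive controls, -0.037 with a mean of at least 100 and -0.077 in limma. At 4 h with no filter miR-466g was at 0.015 and miR-467f at 0.023. For the difference of responses miR-466g was at -0.15 scaled to housekeeping and -0.012 with no filter.

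For 24 h against 4 h in vehicle, miR-297c was at -0.0091 scaled to housekeeping, -0.017 to positive controls and -0.0059 in limma. There miR-466d-3p was at -0.031 scaled to the 100 highest, -0.056 to housekeeping, -0.025 to positive controls and -0.041 in limma, and miR-466k at -0.064 scaled to housekeeping. In insulin, miR-467f was at -0.0012 with DESeq2 size factors, -0.051 scaled to the 100 highest, -0.49 to housekeeping, -0.031 to positive controls, -0.00032 with no filter, -0.0045 in DESeq2, -0.015 in limma and -0.091 with background subtracted. Housekeeping scaling moved the median of all 195 miRNAs to -0.33 for insulin against vehicle at 24 h and -0.50 for 24 h against 4 h in insulin.

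With each library left out, insulin against vehicle at 24 h ran from -0.45 to 0.24 for miR-297c, -0.29 to 0.00094 for miR-466d-3p, -0.41 to 0.31 for miR-466g and -0.29 to 0.035 for miR-466k. At 4 h it ran from -0.16 to 0.084 for miR-466g, -0.091 to 0.26 for miR-466k and -0.22 to 0.053 for miR-467f. The difference of responses of miR-466g ran from -0.34 to 0.38. In vehicle over time, miR-297c ran from -0.12 to 0.25 and miR-466d-3p from -0.087 to 0.20, and in insulin miR-297c from -0.96 to -0.19, miR-466g from -0.67 to 0.059, miR-466k from -0.29 to 0.090 and miR-467f from -0.034 to 0.23. The cause of these changes was not tested.

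Calls over all miRNAs varied more: for 24 h against 4 h in insulin there were 7 in edgeR, 2 with DESeq2 size factors, 15 and 16 scaled to the 100 highest and to housekeeping, 2 scaled to positive controls, 1 with no filter, 13 with a mean of at least 100, 21 in DESeq2, 0 in limma (39 at an unadjusted p under 0.05), 2 with background subtracted and 18 with the replicate block. In vehicle there were 0 in edgeR (31 at an unadjusted p under 0.05), 9 scaled to the 100 highest, 7 with a mean of at least 100, 15 in DESeq2 and 10 with the replicate block. The block changed no call of a member. Outside the 24 h pairs, same-numbered libraries correlated from -0.43 to 0.74. Signal over background limits what can be read of the 28 members below the filter, whose values come from the fit without it.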
